A study of Mus musculus with 6 samples.

Results

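The proteasome genes of activated CD8 T cells were compared between WT and Utx KO mice. Members were all genes whose mouse symbol starts with Psma, Psmb, Psmc, Psmd, Psme, Psmf or Psmg followed by a number, pseudogene names left out, with at least 1 CPM (counts per library scaled to a total of 1000000) in 3 or more libraries. Of 50 such genes listed, 48 passed, out of 10590 genes that passed among 25655 listed. The 2 that did not were Psma8, the testis form of an alpha subunit, with a single read in Utx KO replicate 1, and Psmb11, the thymic catalytic subunit, with 1 read each in Utx KO replicates 1 and 3. The lowest member that passed, Psmc3ip, lay between 11.1 and 21.6 CPM, well clear of the filter.

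The 6 libraries, 3 WT and 3 Utx KO, were made from splenic cells of female C57BL/6 mice. Utx is the histone H3K27 demethylase encoded by Kdm6a. Which exons are removed, and in which cells, is not in the labels used here. Naive (CD44low CD62Lhigh) CD8 T cells received immobilized anti-TCR-β (3 µg/ml) plus anti-CD28 (1 µg/ml) and interleukin 2 (10 ng/ml) for 2 days, followed by 3 days in interleukin 2 alone. RNA (500 ng) was taken at day 5 for 3' end sequencing. The labels call the replicates biological without naming animals; the p-values therefore reflect only how far these samples spread, which may be technical.

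The proteasome is the barrel-shaped protease that degrades ubiquitin-tagged proteins and cuts the peptides that MHC class I displays. Rings of alpha subunits gate a pair of inner beta rings, whose 3 kinds of catalytic subunit do the cutting, and a cap of ATPases and non-ATPase subunits binds, unfolds and feeds in the substrate. In lymphocytes and in cells exposed to interferon gamma, the constitutive catalytic subunits Psmb6, Psmb7 and Psmb5 are replaced by Psmb9, Psmb10 and Psmb8, which makes the immunoproteasome, and the activator PA28, built from Psme1 and Psme2, can take the place of the cap. The comparison made here asks whether this immune set moved apart from the constitutive subunits in Utx KO cells.

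Most proteasome genes differed little between the genotypes. Of the 48, 1 rose in Utx KO, the cap subunit Psmd8, and 2 fell, the alpha ring subunit Psma4 and the cap ATPase Psmc2 (adjusted p under 0.05, limma on log2(CPM + 1), adjusted over all 10590 genes tested). That is 6.25% of the members, where 10.8% of all tested genes were called. Of all tested genes, 5.28% rose and 5.51% fell. None of the 5 immune genes Psmb8, Psmb9, Psmb10, Psme1 and Psme2 passed in limma, edgeR or DESeq2, and 2 of them, Psmb9 and Psmb10, had an unadjusted limma p under 0.05, with opposite signs. Over all 48 members 7 did (14.6%), against 22.7% of all tested genes.

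Libraries held 1619085 to 2529113 reads, recovered from the CPM values, and a member had between 21 and 3013 reads in a library. Absence of reads allows a level of up to 1.19 CPM at the greatest depth and 1.85 CPM at the least (the worth of 3 reads, counting error only). Kdm6a was at 44.3, 49.3 and 53.6 CPM across the WT libraries and at 27.8, 39.4 and 31.5 CPM for Utx KO (−0.57 on the log2 scale, limma adjusted p = 0.0123). A 3' tag outside the deleted part checks nothing, so this does not settle the labels, and DESeq2 did not call it (adjusted p = 0.0985; 0.0051 to 0.0985 over 15 alternatives), nor did limma when any of WT replicate 2 (0.0521), WT replicate 3 (0.0710) and Utx KO replicate 1 (0.0526) was left out. Of the 8 CD8 T cell markers, Cd8a, Cd8b1, Cd3d, Cd3e, Cd3g, Cd2 and Lck were detected in all 6 libraries and Trac was listed at 0. Summed, they lay at 2173 to 2267 CPM for WT and 2396 to 2442 CPM for Utx KO. With limma, 3 of the 7 tested rose and 1 fell, where 10.8% of all tested genes were called. Cd8b1 (0.19 on the log2 scale), Cd3d (0.30) and Cd3e (0.32) rose and Cd2 (−0.30) fell. These calls held in 10, 15, 13 and 15 of 15 alternatives in that order. The 5 B cell markers summed to 2.76 to 5.47 CPM across WT libraries and 0.571 to 1.85 CPM across Utx KO libraries, nearly all Cd79b, with Cd79a, Ms4a1 and Pax5 at 0. The 5 erythroid markers summed to 0 to 0.461 CPM across WT libraries and 2.28 to 3.09 CPM across Utx KO libraries, with Hbb-bs and Alas2 at 0. The 3 CD4 T cell markers reached at most 10.4 CPM, all or nearly all Foxp3, with Cd4 at 0, the 6 macrophage or monocyte markers 3.71 CPM (Csf1r, the other 5 at 0), the 3 NK markers 1.85 CPM with Ncr1 at 0, the 3 platelet markers 1.24 CPM with Pf4 at 0, and all 4 neutrophil markers were at 0. The 6 dendritic markers summed to 72.3 to 88.6 CPM across WT libraries and 101 to 114 CPM across Utx KO libraries, mostly the MHC class II gene H2-Ab1, with Flt3 and Siglech at 0. H2-Ab1 rose from 77.7 ± 9.57 to 98.9 ± 6.99 CPM (SD, n = 3; 0.35 on the log2 scale, limma adjusted p = 0.0357, called in 10 of 15 alternatives with adjusted p of 0.0258 to 0.237). Batf3 was at 4.74, 4.15 and 3.83 CPM across WT libraries and 11.1, 9.71 and 5.56 CPM across Utx KO libraries, without overlap (0.86 on the log2 scale, limma adjusted p = 0.0878, called in 2 of 15 alternatives). The part of these markers in the proteasome values was not tested.

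The upstream sequences of 3 members are shown: the constitutive catalytic subunits Psmb5 and Psmb6, and Psmd8, the 1 member that rose. They were picked in view of Nfe2l1, the transcription factor known for driving proteasome genes through antioxidant response elements. Nfe2l1 was higher in Utx KO, a call that held in 10 of 15 alternatives, and any link between it and the member values was not tested. No immune subunit is among the 3, nor the called members Psma4 and Psmc2. Psmb5 and Psmb6 are among the 5 members that hold the letters marked below, so the 3 do not stand for the family. Each is the 250 bases before the RefSeq start of the gene in GRCm38, 5′ to 3′ along the gene's strand, and capitals mark a match to the letters TGACNNNGC (antioxidant response element core), searched on both strands. None of the 3 windows matched the other motifs searched. Psmb5 is read from the minus strand at chr14:54617996-54618245, Psmb6 from the plus strand at chr11:70525107-70525356 and Psmd8 from the minus strand at chr7:29180674-29180923.
Psmb5: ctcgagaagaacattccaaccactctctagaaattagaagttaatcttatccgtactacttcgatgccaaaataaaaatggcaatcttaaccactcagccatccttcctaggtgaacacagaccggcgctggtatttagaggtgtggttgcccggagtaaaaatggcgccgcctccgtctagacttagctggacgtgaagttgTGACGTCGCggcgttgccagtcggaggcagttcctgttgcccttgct
Psmb6: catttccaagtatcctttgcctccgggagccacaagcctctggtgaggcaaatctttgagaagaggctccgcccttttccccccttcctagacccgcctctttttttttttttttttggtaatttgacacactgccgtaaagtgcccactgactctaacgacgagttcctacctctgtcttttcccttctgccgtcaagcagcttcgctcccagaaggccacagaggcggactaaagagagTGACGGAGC
Psmd8: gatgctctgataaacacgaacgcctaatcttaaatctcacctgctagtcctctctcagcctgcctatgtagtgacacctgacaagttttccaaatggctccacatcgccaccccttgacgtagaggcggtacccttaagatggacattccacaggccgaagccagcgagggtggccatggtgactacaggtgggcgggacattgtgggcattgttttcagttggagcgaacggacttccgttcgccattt
The letters occur in Psmb5 and Psmb6 and not in this window of Psmd8. RefSeq windows were matched by symbol for 41 of the 48 members, and 5 of these held TGACNNNGC (Psmb5, Psmb6, Psmc6, Psmd12 and Psmd9), 12.2%, against 11.5% of 27025 genes with a window. The interferon-response letters GAAA, any 2 bases, GAAA occurred in 3 (Psmb3, Psmd4, Psmd9; 7.32% against 3.46%), the letters TTCNNNGAA in 2 (Psmb8 and Psmg1; 4.88% against 8.13%) and CCAAT in 14, Psmb9 among them (34.1% against 37.5%). A match describes letters in a window and not a site in use. The windows of Psmb8 and Psmb9 lie wholly inside annotated exons and are not shown. The window of Psmb10, with 52 of its 250 bases in exons, matched none of the motifs and is not shown either.

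The immunoproteasome subunit Psmb8 was the most abundant member in every library. Its levels were 1126, 1105 and 1189 CPM in WT replicates 1, 2 and 3 and 1197, 1113 and 1127 CPM for Utx KO replicates 1, 2 and 3. The groups overlapped. The fitted difference was 0.01 on the log2 scale (SE 0.05, limma adjusted p = 0.958), with a 95% interval from 0.942-fold to 1.07-fold. By mean level Psmb8 was at position 133 of the 10590 tested genes. The sign of its difference turned with TMM scaling and with some libraries left out. Psmb8 lies on chromosome 17, 34197721 to 34201454 (GRCm38), in the MHC class II region, close to Psmb9 at 34181987 to 34187764.

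Psmb9, which takes the place of Psmb6, was at 470, 427 and 480 CPM across the WT libraries and at 551, 477 and 527 CPM for Utx KO. Utx KO replicate 2 lay below the highest WT library and the other Utx KO libraries above all 3. The log2 fold change of 0.17 (SE 0.06) had a 95% interval above 0, from 1.03-fold to 1.23-fold, but did not pass after adjustment (limma adjusted p = 0.0755). It passed only without Utx KO replicate 2 (0.23, adjusted p = 0.0270, with 0.0270 to 0.346 over the 15 alternatives). The 3' end of Psmb9 shares no sequence with another gene. Its exons overlap those of Tap1 on the opposite strand at the 5' ends of both genes, away from the 3' ends that the tags sample.

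Psmb10, which takes the place of Psmb7, showed the opposite sign. It was at 112, 115 and 126 CPM across the WT libraries and at 109, 89.7 and 97.6 CPM for Utx KO, with every Utx KO library below every WT library. The log2 fold change was −0.25 (SE 0.10; interval 0.732-fold to 0.963-fold) and did not pass (limma adjusted p = 0.101). Without Utx KO replicate 1, the Utx KO library nearest to WT, it was −0.32 and passed (adjusted p = 0.0343; 0.0343 to 0.446 over the 15 alternatives). Psmb10 lies on chromosome 8, 105935735 to 105938444.

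The constitutive counterparts did not pass either. Psmb6 was at 118, 129 and 108 CPM for WT and 108, 101 and 116 CPM for Utx KO (log2 fold change −0.13, limma adjusted p = 0.445). Psmb7 was at 208, 224 and 202 CPM and at 218, 210 and 206 CPM (0.00, adjusted p = 0.995, the sign turning with TMM scaling and with DESeq2). Psmb5 was at 215, 222 and 205 CPM and at 250, 232 and 210 CPM (0.11, adjusted p = 0.435). All 3 had overlapping groups. Psmb5 shares 51.4% of its 3' end sequence with a gene model, Gm3375, so its reads may be split with that model.

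The balance of immune and constitutive subunits was read from the 3 pairs in each library. Each transcript yields roughly 1 tag with this kit, so CPM of different genes were set side by side without a length, although priming can still differ between genes. Psmb8 made up 84.0, 83.3 and 85.3% of the Psmb8 and Psmb5 tags in WT and 82.7, 82.7 and 84.3% in Utx KO. Psmb9 made up 79.9, 76.7 and 81.6% of the Psmb9 and Psmb6 tags in WT and 83.6, 82.6 and 82.0% in Utx KO, all higher than in WT. Psmb10 made up 34.9, 34.0 and 38.3% of the Psmb10 and Psmb7 tags in WT and 33.3, 30.0 and 32.1% in Utx KO, all lower than in WT. So by tags 2 pairs were mostly of the immune form in both genotypes and the third mostly of the constitutive form. Tags count RNA and do not give the makeup of the particle. Psmb5 tags may be split with Gm3375, which could raise the Psmb8 share.

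On the log2 scale the pairs differed between genotypes in different directions. The log2 ratio of Psmb9 to Psmb6 was 1.94 ± 0.21 in WT and 2.25 ± 0.08 in Utx KO (SD, n = 3), a difference of 0.31. Its groups were separated narrowly (2.14 in WT replicate 3, 2.18 in Utx KO replicate 3), and the groups of Psmb9 alone overlapped. The ratio of Psmb10 to Psmb7 was −0.84 ± 0.14 and −1.09 ± 0.11, a difference of −0.25, again with a narrow gap (−0.953 in WT replicate 2, −0.996 in Utx KO replicate 1). The ratio of Psmb8 to Psmb5 was 2.41 ± 0.11 and 2.31 ± 0.09, a difference of −0.10 with overlapping groups. Averaged over the 3 pairs the ratio was 1.17 ± 0.15 in WT and 1.16 ± 0.06 in Utx KO, a difference of −0.02, within the SD of either group. The sign of that mean turned without WT replicate 3 (0.06) or Utx KO replicate 2 (0.02). These ratios are a description and carry no p-value, since the subunits were chosen with earlier results of these data known. Taken singly, 26.5% of all tested genes had groups that did not overlap, and no such share was computed for ratios.

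**Figure D1:**
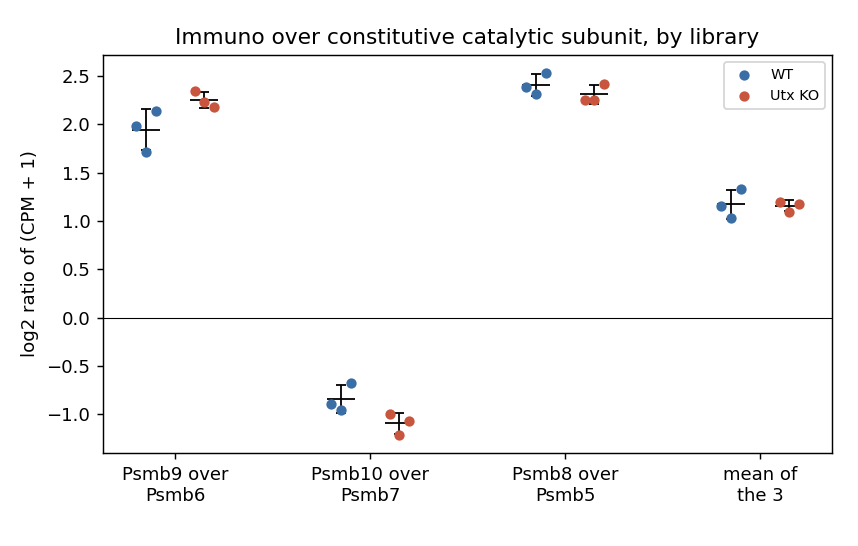
Log2 ratio of (CPM + 1) of each immune catalytic subunit to its constitutive counterpart, and the mean of the 3 ratios, in each library (points; WT blue, Utx KO red), with the mean and SD of 3 libraries (black). The Psmb9 to Psmb6 ratio is higher in all Utx KO libraries and the Psmb10 to Psmb7 ratio is lower in all of them, each by a narrow gap. The mean of the 3 overlaps.

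PA28, the activator that opens the barrel and is tied to peptide production for MHC class I, also showed no called difference. Psme1 was at 583, 605 and 593 CPM across the WT libraries and at 655, 608 and 574 CPM for Utx KO, with Utx KO replicates on both sides of the WT range (log2 fold change 0.04, limma adjusted p = 0.705). Psme2 was at 302, 319 and 292 CPM across the WT libraries and at 313, 276 and 245 CPM for Utx KO (−0.14, adjusted p = 0.300). It passed only without Utx KO replicate 1 (adjusted p = 0.0378; up to 0.782 over the 15 alternatives).

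The 3' end of Psme2 shares 58.8% of its sequence with other genes, chiefly its copy Psme2b on chromosome 11 (48945354 to 48946190), so reads may move between them. Psme2b varied more than any other member, with 35.2, 53.5 and 39.4 CPM for WT and 13.9, 47.4 and 68.6 CPM for Utx KO. In Utx KO replicate 1, Psme2 was highest of the Utx KO libraries and Psme2b lowest. Summed, the 2 genes were at 337, 373 and 332 CPM across the WT libraries and at 327, 323 and 313 CPM for Utx KO, so that the groups no longer overlapped, with a log2 difference of −0.11. The gap was narrow (332 CPM in WT replicate 3, 327 CPM in Utx KO replicate 1), and groups did not overlap for 26.5% of all tested genes. The sum was chosen after the values were seen and was not tested.

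The other activators are less tied to the immune response. Psme3, the nuclear relative of PA28, was at 75.9 ± 10.7 CPM for WT and 68.0 ± 5.65 CPM for Utx KO (SD, n = 3; limma adjusted p = 0.501). Psme4, the large activator PA200, was at 85.8 ± 15.9 and 89.9 ± 6.68 CPM (adjusted p = 0.748), its sign turning without WT replicate 3. Psmf1, known as an inhibitor of the barrel in the test tube, was at 38.7 ± 2.11 and 36.8 ± 5.65 CPM (adjusted p = 0.813). Of the 5 genes for activators and inhibitor, PA28 included, 0 passed with limma, edgeR or DESeq2, and 0 had an unadjusted limma p under 0.05 (22.7% of all tested genes did). Of these 5, Psme1 had the highest level and Psmf1 the lowest.

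The alpha ring, which gates entry, held 1 called gene. Psma4 was at 408, 433 and 407 CPM across the WT libraries and at 400, 334 and 346 CPM for Utx KO. All Utx KO libraries lay below all WT libraries, Utx KO replicate 1 by a narrow margin. It fell by 0.21 on the log2 scale (SE 0.07, limma adjusted p = 0.0385; interval 0.785-fold to 0.949-fold). The call held in 6 of 15 alternatives (adjusted p 0.0017 to 0.193). It was lost with a pseudocount of 0.1 (0.0530), limma-voom (0.0510) and DESeq2 (0.143), with the replicate number as a block (just above the threshold), and without any of WT replicates 1, 2 and 3 (0.0667, 0.180 and 0.0649) or Utx KO replicates 2 and 3 (0.193 and 0.130). Psma4 lies on chromosome 9, 54950790 to 54958030, and shares 25.8% of its 3' end sequence with the gene model Gm6542.

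Of the other alpha genes, Psma7 had the highest level of the ring, at 633, 622 and 619 CPM for WT and 610, 557 and 591 CPM for Utx KO. Its groups did not overlap, but the log2 fold change of −0.09 did not pass (limma adjusted p = 0.305). Psma5 had the lowest, at 94.4 ± 8.78 CPM for WT and 88.5 ± 9.14 CPM for Utx KO (SD, n = 3; adjusted p = 0.664). The remaining 4, Psma1, Psma2, Psma3 and Psma6, had log2 fold changes from −0.15 to 0.07 and overlapping groups. Summed over the ring, Utx KO had 2139, 1922 and 1953 CPM against 2142, 2093 and 2077 CPM in WT.

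In the constitutive beta ring 0 of 7 genes passed with limma, edgeR or DESeq2, and 0 had an unadjusted limma p under 0.05 (all tested genes, 22.7%). Psmb1, a structural subunit, had the highest level, at 351 ± 17.6 CPM for WT and 359 ± 31.6 CPM for Utx KO (SD, n = 3; limma adjusted p = 0.875). Psmb2 had the lowest, at 68.2 ± 3.12 and 68.2 ± 4.77 CPM (adjusted p = 0.992). Among the structural subunits the fitted log2 fold changes ran from 0.00 for Psmb2 to 0.11 for Psmb3. All 7 genes of the ring had overlapping groups, whereas groups did not overlap for 26.5% of all tested genes.

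The ATPases form the motor of the cap. Psmc2 was at 125, 135 and 119 CPM across the WT libraries and at 116, 103 and 88.3 CPM for Utx KO, again with every Utx KO library below every WT library. It fell by 0.31 on the log2 scale (SE 0.10, limma adjusted p = 0.0491; interval 0.702-fold to 0.933-fold), the lowest fitted value of any member. The call stood at the threshold and held in 4 of 15 alternatives (adjusted p 0.0085 to 0.260): it was lost with pseudocounts of 0.5 (0.0531) and 0.1 (0.0656), with no filter (0.0508), edgeR (0.0540), limma-voom (0.0613) and DESeq2 (0.260), and without WT replicate 1 (0.109), 2 (0.213) or 3 (0.0608) or Utx KO replicate 2 (0.0946) or 3 (0.252). Psmc2 lies on chromosome 5, 21785283 to 21803787.

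The other ATPases gave no call. Psmc1 had the highest level, at 513 ± 26.1 CPM for WT and 542 ± 33.0 CPM for Utx KO (SD, n = 3; limma adjusted p = 0.478), and Psmc5 the lowest, at 68.5 ± 10.6 and 69.4 ± 6.87 CPM (adjusted p = 0.945). Psmc3, Psmc4 and Psmc6 had log2 fold changes of −0.02, −0.13 and 0.06. Psmc1 tags were thus several times those of Psmc5, although the ring holds both.

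Among the 11 non-ATPase subunits of base and lid, which bind ubiquitin and remove it from the substrate, 1 gene rose. Psmd8, a lid subunit, was at 238, 247 and 277 CPM across the WT libraries and at 313, 304 and 307 CPM for Utx KO. The 3 Utx KO libraries lay close together above all WT libraries, of which replicate 3 was nearest. Psmd8 rose by 0.28 on the log2 scale (SE 0.07, limma adjusted p = 0.00743; interval 1.10-fold to 1.34-fold), and the call held in 14 of 15 alternatives (0.0029 to 0.0597), the exception being the fit without WT replicate 1 (0.23, adjusted p = 0.0597). Psmd8 lies on chromosome 7, 29174188 to 29180701, and its 3' end shares no sequence with another gene. It was the only member called with limma, edgeR, limma-voom and DESeq2 alike.

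The lid genes Psmd3 and Psmd13 had unadjusted limma p under 0.05 but did not pass after adjustment. Psmd13 was at 204, 200 and 188 CPM across the WT libraries and at 236, 226 and 206 CPM for Utx KO, without overlap (log2 fold change 0.17, limma adjusted p = 0.165). Psmd3, which had the highest mean level of the 11, was at 280, 287 and 311 CPM across the WT libraries and at 353, 329 and 296 CPM for Utx KO, with overlap (0.15, adjusted p = 0.188). Psmd6 had the lowest level, at 107 ± 8.90 and 109 ± 13.5 CPM (SD, n = 3). Psmd14, the enzyme that strips ubiquitin from the substrate, was at 157 ± 17.4 and 144 ± 7.52 CPM (adjusted p = 0.464), and the ubiquitin receptor Psmd4 at 259 ± 16.4 and 275 ± 12.5 CPM (adjusted p = 0.501). Of the 11, 6 had a positive and 5 a negative fitted difference.

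**Figure D2:**
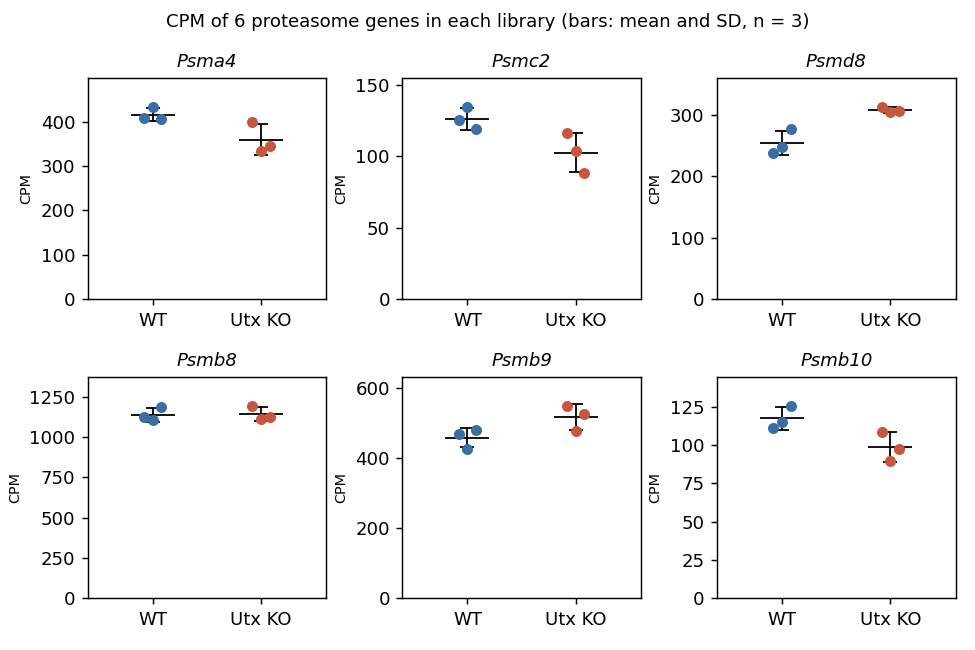
CPM of the 3 called members (Psma4, Psmc2, Psmd8) and the 3 immune catalytic subunits (Psmb8, Psmb9, Psmb10) in each library, with axes from 0. Points are libraries and bars the mean and SD of 3. The Utx KO points of Psma4, Psmc2 and Psmb10 lie below all WT points, those of Psmd8 above, and those of Psmb8 and Psmb9 overlap WT.

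Assembly factors were among the least abundant members. The base chaperones Psmd5, Psmd9 and Psmd10 were at 26.6 to 51.3 CPM over all libraries, and the chaperones of the alpha ring Psmg1, Psmg2, Psmg3 and Psmg4 at 32.7 to 61.1 CPM. Of these 7, 0 passed with limma, edgeR or DESeq2, and 0 had an unadjusted limma p under 0.05 (all tested genes, 22.7%). Psmg3 was at 49.8, 55.3 and 55.8 CPM across the WT libraries and at 60.4, 61.1 and 58.7 CPM for Utx KO, without overlap (log2 fold change 0.16, limma adjusted p = 0.452). Psmd10, the oncoprotein gankyrin, had the largest fitted difference of the 7 (−0.22, adjusted p = 0.472). Psmc3ip, which matched by name only, encodes a recombination factor, and was at 14.3 ± 2.46 and 15.9 ± 5.32 CPM (SD, n = 3).

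**Figure D3:**
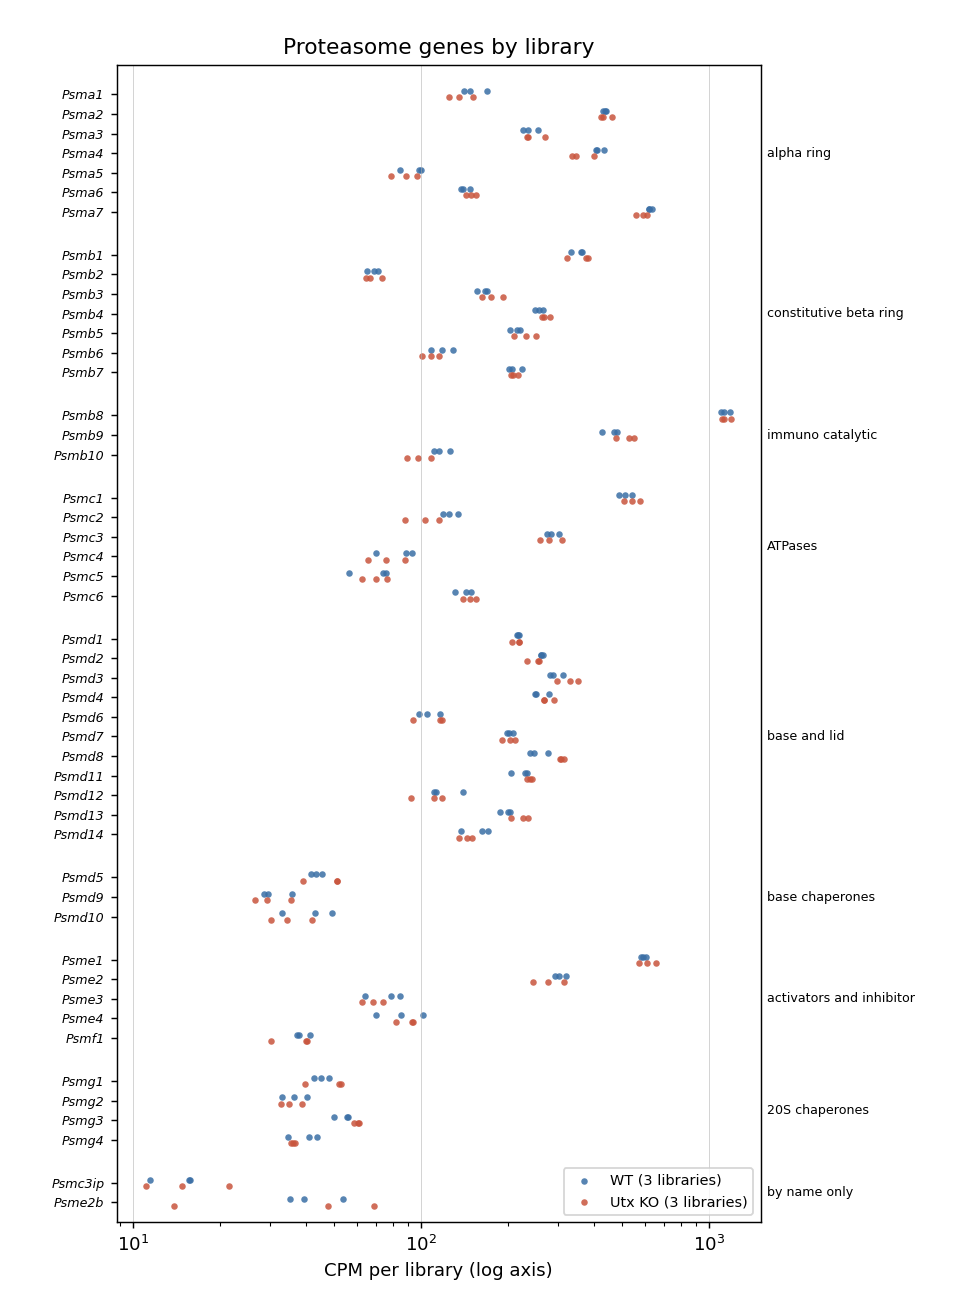
CPM of the 48 proteasome genes in each library on a log axis, ordered by role (points; WT blue, Utx KO red, 3 libraries each). Psmb8 lies highest, at 1105 to 1197 CPM, and within a gene the libraries of both genotypes mostly overlap.

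Across the 48 members the fitted differences were small and balanced in sign. Of the 48, 25 had a positive and 23 a negative log2 fold change, from −0.31 to 0.28. The median was 0.00 for the members and 0.01 for all tested genes. The median size without sign was 0.09 for the members and 0.19 for all tested genes, but the members were more deeply sampled, with a median level of 148 CPM against 24.2 CPM and a median SE of 0.08 against 0.19, so the sizes cannot be compared as such. For 46 of 48 members the 95% interval lay within 1.5-fold of no difference in either direction, a limit chosen after the values were seen, against 48% of all tested genes. The exceptions among the members were Psme2b and Psmc3ip. Interval width follows the SE, so this share and that of all tested genes cannot be compared as such either. Groups did not overlap for 9 members (18.8%), against 26.5% of all tested genes; 5 of them, Psma4, Psma7, Psmb10, Psmc2 and Psmd2, were lower and 4, Psmd8, Psmd11, Psmd13 and Psmg3, higher in Utx KO.

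The summed level was also close. The 48 genes took 10129, 10272 and 10097 CPM for WT and 10766, 10020 and 9948 CPM for Utx KO, about 1.02% of reads in each genotype. Utx KO replicate 1 was highest and Utx KO replicate 3 lowest of the 6. The 5 immune genes summed to 2614 ± 57.3 CPM for WT and 2653 ± 148 CPM for Utx KO, and the 31 constitutive subunits of barrel and cap to 7003 ± 114 and 7046 ± 326 CPM (SD, n = 3). In bulk samples, fewer cells of a type and less RNA per cell cannot be told apart.

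**Figure D4:**
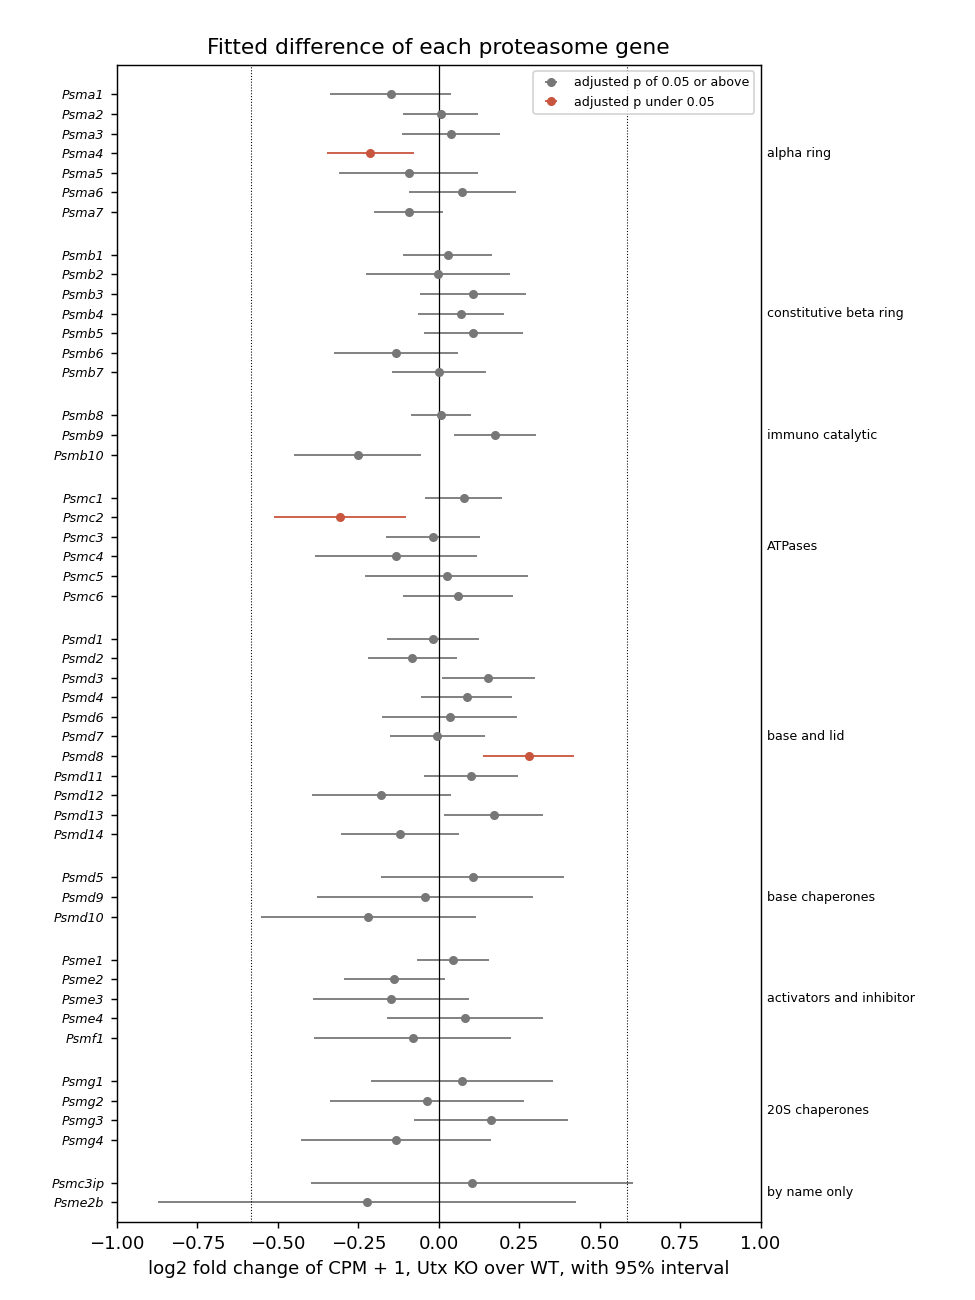
Fitted log2 fold change of CPM + 1 (Utx KO over WT) of the 48 members with 95% intervals from limma, ordered by role. Called members are red (Psma4, Psmc2 lower, Psmd8 higher), the dotted lines mark 1.5-fold in each direction, and the interval of every member but Psme2b and Psmc3ip lies between them.

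Partners of the proteasome outside the family gave 1 call among 24 tested genes, with 25 on the list. Of all tested genes, 10.8% were called. Nfe2l1 was at 38.0, 53.0 and 42.1 CPM across the WT libraries and at 55.2, 61.1 and 68.6 CPM for Utx KO, without overlap. It rose by 0.47 on the log2 scale (SE 0.14, limma adjusted p = 0.0245), and the call held in 10 of 15 alternatives (0.0106 to 0.197): DESeq2 (0.197) and limma lacking WT replicate 1 (0.141) or 3 (0.0788) or Utx KO replicate 2 (0.0667) or 3 (0.110) did not call it. Its activating protease Ddi2 was at 54.3 ± 10.4 CPM for WT and 68.7 ± 4.83 CPM for Utx KO (SD, n = 3; adjusted p = 0.0940), and the related factor Nfe2l2 at 84.6 ± 5.62 and 82.6 ± 3.60 CPM (adjusted p = 0.900). Pomp, the chaperone that completes the beta ring and is known to favour immune subunits, was at 491, 495 and 479 CPM across the WT libraries and at 469, 412 and 437 CPM for Utx KO, without overlap (−0.15, adjusted p = 0.101). Zfand2a, a stress-induced partner of the cap, was at 5.75 ± 2.29 and 2.27 ± 1.47 CPM (adjusted p = 0.0869).

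Genes of MHC class I antigen processing and presentation gave 1 rise and 1 fall among 16 (all tested genes, 10.8% called). Tapbpl, a peptide editor of class I molecules, fell from 102 ± 8.18 to 74.1 ± 4.72 CPM (SD, n = 3), a difference of −0.45 on the log2 scale (limma adjusted p = 0.00424), a call that held in all 15 alternatives. Npepps, a cytosolic aminopeptidase that trims peptides, rose from 175 ± 3.85 to 211 ± 15.2 CPM (0.27, adjusted p = 0.0210), a call lost with DESeq2 (0.136; 0.0044 to 0.136 over the 15 alternatives) and without WT replicate 2 (0.0824) or 3 (0.0658) or Utx KO replicate 2 (0.0995) or 3 (0.0825). Tapbp (tapasin) was at 394 ± 17.3 and 356 ± 6.27 CPM and Erap1 at 56.7 ± 4.82 and 46.3 ± 5.07 CPM, with adjusted p of 0.131 and 0.171.

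The interferon gamma pathway, which is known to induce the immune subunits, gave 2 falls and 0 rises among 12 genes. Of all tested genes, 5.51% fell and 5.28% rose, and the list itself was not tested. Jak1, a kinase of the interferon receptors, fell from 643 ± 23.1 to 549 ± 19.0 CPM (SD, n = 3), a difference of −0.23 on the log2 scale (limma adjusted p = 0.00463), and Ifng itself from 7.82 ± 1.56 to 1.32 ± 0.236 CPM. Both calls held in all 15 alternatives, but Ifng rested on 52 reads over the WT libraries and 8 over the Utx KO libraries. Its Utx KO values of 1.59, 1.14 and 1.24 CPM lay near the worth of 3 reads. Jak2 was at 33.8 ± 8.30 and 23.2 ± 6.67 CPM (limma adjusted p = 0.0932). In the same libraries the log2 fold changes of Psmb8, Psmb9 and Psmb10 were 0.01, 0.17 and −0.25. Cell division genes gave 2 rises and 3 falls among 20 (all tested genes, 10.8% called). The rises were Plk1 (0.42 on the log2 scale) and Cdc20 (0.32), and the falls Pcna (−0.28), Bub1 (−0.35) and Mcm4 (−0.26). These calls held in 15, 12, 15, 10 and 9 of 15 alternatives in that order. The part of the interferon gamma and cell division genes in the proteasome values was not tested.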

How the data were processed

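The authors deposited 1 table per library of CPM, in which the listed genes of a library sum to 1000000, as the column totals show. Libraries were made with a QuantSeq 3' kit per the labels' protocols. The submitters' processing notes name GRCm38 and mm10; aligner, counter and strand setting were not given in the sources used here. Every value above 0 was a whole multiple of 1 read (100% within 0.001 reads), which gave the reads for the count tests.

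Symbols were found for 25600 of 25655 identifiers. Genes reaching 1 CPM in at least 3 libraries were kept, and log2(CPM + 1) was fitted with limma-trend (limma 3.58.1, R 4.3.3) with genotype as the only term, all 6 libraries, two-sided, Benjamini-Hochberg adjusted, threshold 0.05. Fold changes are on this scale and understate those of low genes. The alternatives were edgeR 4.0.16 (quasi-likelihood, genes kept by its own filter), DESeq2 1.42.0, limma-voom, TMM-rescaled CPM, other pseudocounts and filters, a replicate block, and each library left out in turn.

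For each gene, 50-nt pieces of the last 300 nt of its protein-coding transcripts (GENCODE M21) were looked up in every other gene's transcripts, and 9 members shared at least 20%, namely Psma3, Psma4, Psma5, Psmb3, Psmb5, Psmd1, Psmd2, Psme2 and Psme2b. Exons of 4 members overlap another gene on the same strand and of 12 on the opposite strand. The members, lists and tests were chosen with earlier results of these data known. Named were the immune and constitutive catalytic subunits, activators, Kdm6a, Pomp, Nfe2l1, Nfe2l2, every called member, the highest, lowest and lowest-p member of each role, and up to 4 genes of each other list; other names were chosen after their values were seen. A gene that this rule would name is not reported here. No pair of replicates agreed within counting noise (chi-square divided by its degrees of freedom, 1.33 to 2.00).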

Additional observations from a re-analysis of the deposited data

How the results depend on the processing

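The count of all changed genes (1142) was 551 with DESeq2 and ranged from 747 (without WT replicate 2) to 1056 with 1 library left out. The count of changed proteasome genes (3) was 1 with a pseudocount of 0.1, with limma-voom and with DESeq2, Psmd8 each time, and ranged from 0 (limma without WT replicate 1, where 8 members had an unadjusted p under 0.05) to 5 (without Utx KO replicate 1: Psma4, Psmb10, Psmc2, Psmd8 and Psme2) with 1 library left out. The mean immune to constitutive log2 ratio difference (−0.02) stayed within 1 SD of the libraries in all 10 alternatives, from −0.09 to 0.06 with 1 library left out. Same-numbered libraries did not deviate together (r = 0.006, −0.003 and −0.010 for numbers 1, 2 and 3, and no library correlated best with its own number). With the replicate block 1065 genes and 2 members, Psmc2 and Psmd8, were called.

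Among 720 refits of single members, the sign turned in 46, of 18 genes, none of them called either way. With a library left out, the lowest and highest log2 fold changes of these were −0.0332 and 0.0309 (Psma2), −0.0286 and 0.0855 (Psma3), −0.0161 and 0.102 (Psmb1), −0.0571 and 0.0385 (Psmb2), −0.0292 and 0.0433 (Psmb7), −0.0248 and 0.0378 (Psmb8), −0.0843 and 0.0432 (Psmc3), −0.131 and 0.318 (Psmc3ip), −0.108 and 0.0997 (Psmc5), −0.0320 and 0.0101 (Psmd1), −0.0238 and 0.139 (Psmd6), −0.0374 and 0.0338 (Psmd7), −0.155 and 0.0510 (Psmd9), −0.00553 and 0.0886 (Psme1), −0.680 and 0.432 (Psme2b), −0.0550 and 0.212 (Psme4), −0.148 and 0.0494 (Psmf1), −0.106 and 0.0348 (Psmg2), and −0.0879 and 0.00343 (Nfe2l2, no member). Other turns were −0.00159 (Psma2) and −0.00648 (Psmb7) and −0.000355 (Psmb8) with TMM scaling, 0.0128 (Psmb2) and 0.00343 (Psmd7) with edgeR, 0.0120 (Psmb2) and 0.000264 (Psmd7) with limma-voom, and −0.00483 (Psmb7) and 0.00602 (Psme2b) with DESeq2. Depth limits the least abundant members, such as Psmc3ip with 21 reads in its lowest library, most.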
